A study of Mus musculus with 13 samples.

Results

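Tip cells are the endothelial cells (ECs) that lead a growing vessel sprout. They extend filopodia toward VEGF, secrete matrix proteins and proteases, and restrain their neighbours, the stalk cells, through the Notch ligand Dll4. The genes described here are 6 that are used as markers of tip cells or of sprouting ECs, *Esm1*, *Kcne3*, *Nid2*, *Fscn1*, *Rgcc* and *Mcam*. They were taken by symbol from a fixed list, which was drawn up with earlier results of these data known, and all 6 of 6 were found among the 25715 gene symbols of both sets of ECs. Each passed the filter on low counts in both sets.

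The tumor ECs were CD31+ CD105+ cells sorted from orthotopic E0771 tumors in C57BL6/J mice, with 100 cells per library and harvest at day 25. The study's methods add that cells with CD45, the leukocyte antigen, were gated out. E0771 is a mouse mammary carcinoma line. In the Apelin-depleted group (KO, n = 3) the host was Apln-/- and the injected cells carried shApln, so Apelin was removed from the whole host and reduced in the tumor cells together. In the Apelin wild-type group (WT, n = 6) shRenilla cells grew in wild-type hosts. The sprout ECs were CD31+ cells sorted from embryoid bodies (EBs) of mouse embryonic stem cells on a C57BL/6x129 background, all given VEGFA164 at 30 ng/mL in collagen. Libraries labelled *Apln* STOP (n = 2) carried a splice acceptor in sense in *Apln* and came, as the study describes them, from EBs given DMSO. Libraries labelled *Apln* GO (n = 2) came from sister cells in which Cre had turned the cassette to antisense, given Apelin Pyr13 at 1000 nM. Genotype, Cre and added peptide therefore cannot be told apart in the sprout comparison, and no source used here says that the sprout libraries of a group came from separate cultures, so the p-values there measure only the spread between these libraries, which may be technical. For the tumor ECs the study gives as many samples as there are libraries, but the labels do not say that each came from its own mouse.

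Total counts were 4661044 to 14455093 per tumor library and 12327030 to 16804071 per sprout library. *Apln* was at 2.44 to 12.1 CPM (counts scaled to library size) in the KO libraries and at 416 to 1033 CPM in the WT libraries, a log2 fold change of −6.70 ± 0.59 (SE, edgeR adjusted p = 6.13e-05). In the sprout ECs it was not lower under STOP, with 66.1 and 80.2 CPM in the libraries labelled STOP against 58.2 and 65.9 CPM in those labelled GO (log2 fold change 0.24 ± 0.16, adjusted p = 0.367). The paper states that the sense cassette disrupted Apelin mRNA, and shows RT-qPCR of the STOP and GO stem cells. That measure differs from read counts over the whole gene in sorted sprout ECs, and the cause of the difference was not tested. Tumor libraries WT 5 and KO 3 stood apart with the fewest genes detected, 13466 and 13997, whereas the other 7 had 15619 to 16681. The sprout ECs also carried high levels of pluripotency transcripts, given with the sprout results.

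On mm10, whose coordinates GENCODE M21 uses, all 6 are protein-coding genes. *Esm1* lies at chr13:113209659-113218098 on the plus strand and overlaps *Gzmk* on the minus strand. *Kcne3* lies at chr7:100176502-100184869 (plus) over the antisense gene *Gm34821*. *Nid2* lies at chr14:19751265-19811787 (plus) and overlaps *Rtraf* on the minus strand. *Mcam* lies at chr9:44134469-44142727 (plus) over the antisense gene *Gm10687*. *Fscn1*, at chr5:142960343-142973185 (plus), and *Rgcc*, at chr14:79288756-79301645 (minus), overlap no other gene. The sources do not say whether counting used the strand, so reads in those 4 overlaps cannot be told apart.

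The promoters of the members that were lower in the libraries labelled STOP, and of *Fscn1*, are shown because these genes moved in the same direction there. Each is the 250 bases before a RefSeq start site (GRCm38.p6), 5′ to 3′ on the gene's strand. Capitals mark matches on either strand to 4 motifs. The cAMP response element was searched as TGACGTCA and the TATA box as TATAAA. For the factors that act in ECs, the ETS core was searched as AGGAAG, and the core of RBPJ, the Notch effector, as TGGGAA. No matches overlapped.
Mcam, chr9:44134408-44134657: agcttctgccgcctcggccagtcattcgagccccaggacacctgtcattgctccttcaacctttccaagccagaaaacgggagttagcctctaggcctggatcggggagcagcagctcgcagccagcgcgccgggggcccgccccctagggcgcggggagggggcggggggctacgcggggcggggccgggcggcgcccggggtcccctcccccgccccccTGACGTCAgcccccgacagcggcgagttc
Fscn1, chr5:142960105-142960354: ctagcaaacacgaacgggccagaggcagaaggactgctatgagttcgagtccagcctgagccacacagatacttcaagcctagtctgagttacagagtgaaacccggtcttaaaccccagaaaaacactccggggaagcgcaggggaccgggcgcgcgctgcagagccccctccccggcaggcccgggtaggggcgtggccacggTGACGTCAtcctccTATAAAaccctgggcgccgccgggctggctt
Esm1, chr13:113209409-113209658: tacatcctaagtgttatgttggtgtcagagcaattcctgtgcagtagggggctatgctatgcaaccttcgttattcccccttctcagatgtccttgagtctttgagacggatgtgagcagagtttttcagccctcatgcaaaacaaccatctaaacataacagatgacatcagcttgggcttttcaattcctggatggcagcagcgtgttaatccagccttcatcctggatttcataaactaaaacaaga
Kcne3, chr7:100178433-100178682: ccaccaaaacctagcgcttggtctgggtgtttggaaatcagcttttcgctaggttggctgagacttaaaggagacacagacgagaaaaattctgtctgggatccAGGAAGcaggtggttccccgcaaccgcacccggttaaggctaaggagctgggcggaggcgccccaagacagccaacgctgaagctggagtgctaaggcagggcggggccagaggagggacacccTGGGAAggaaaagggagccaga
The palindrome TGACGTCA starts 29 bases before the start site of *Mcam* and 45 bases before that of *Fscn1*, and 1.55% of 32851 promoter windows of this length hold it. It was added to the search after the sequences had been seen. The GC content of the *Mcam* window was 73.6% and that of the *Esm1* window 44.0%, against a median of 52.4% over all windows. The *Esm1* window held none of the 4 motifs, which says only that these letters are not in these 250 bases. The *Kcne3* window shown held AGGAAG, present in 29.5% of all windows, and TGGGAA, present in 21.6%. The window of a second *Kcne3* start site held AGGAAG but not TGGGAA, and the window of *Rgcc*, which was not lower under STOP, also held AGGAAG. Neither is printed, and *Nid2* is named only.

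In tumor ECs all 6 markers were expressed, and none differed between Apelin-depleted and wild-type tumors by more than the libraries varied. In sprout ECs *Kcne3* and *Mcam* were lower in the libraries labelled STOP and passed the test, *Esm1* and *Fscn1* were lower without passing it, *Nid2* stayed at about the same level and *Rgcc* was at 2.71 to 8.40 CPM in every library. A call needed an adjusted p under 0.05 together with a log2 fold change beyond 1 in either direction. The calls of *Kcne3* and *Mcam* were lost with the replicate number as a block and with scaling to endothelial markers, as given below.

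**Figure D1:**
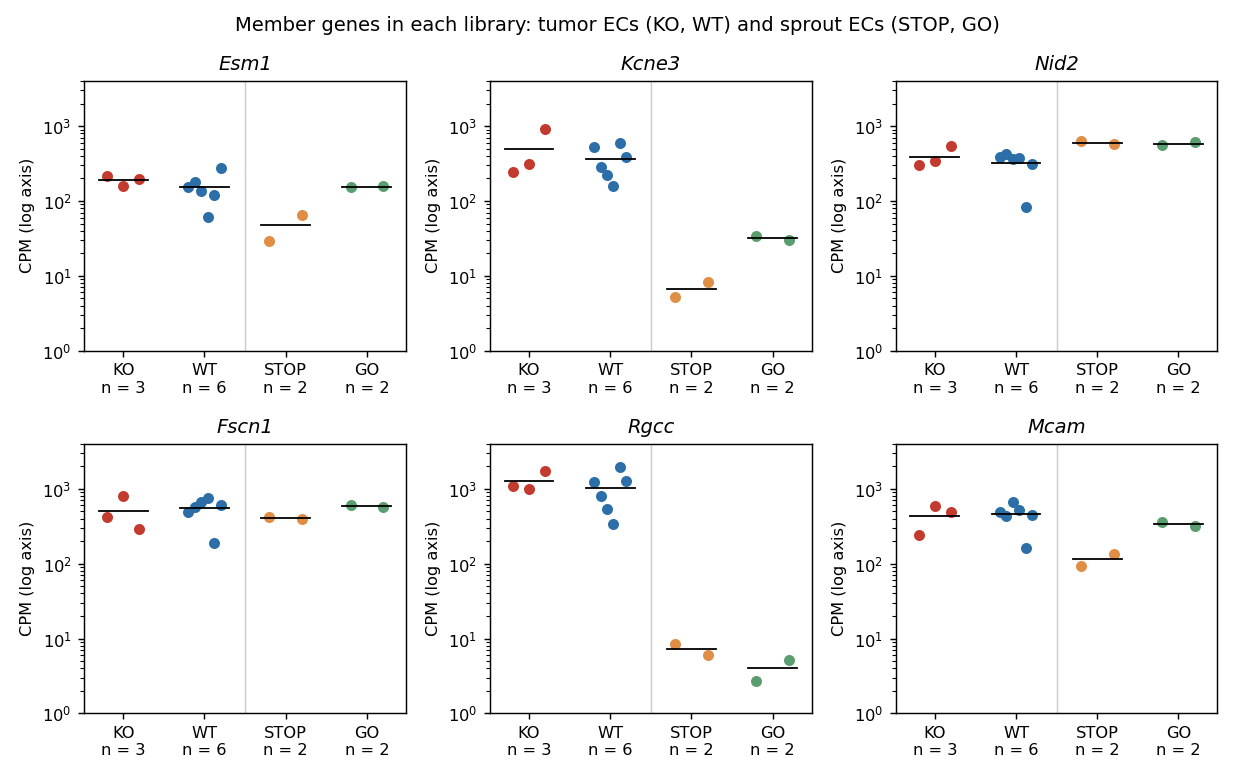
CPM of each member (log axis) in every library of the KO, WT, STOP and GO groups, 1 point per library with a bar at the group mean. The KO and WT points overlap for all 6 genes, whereas the STOP points lie below the GO points for Esm1, Kcne3, Fscn1 and Mcam and above them for Rgcc. With 2 libraries a group, STOP and GO do not overlap for 60.6% of all tested genes. Rgcc is at 344 CPM or more in every tumor library and at 8.40 CPM or less in every sprout library.

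*Kcne3* encodes a single-pass accessory subunit that assembles with voltage-gated potassium channels. In sprout ECs it was at 5.22 and 8.31 CPM in STOP 1 and 2 and at 33.8 and 30.5 CPM in GO 1 and 2, which rest on 77 to 573 reads. The groups did not overlap, which with 2 libraries a group holds for 60.6% of all tested genes. The log2 fold change was −2.25 ± 0.27 (SE, edgeR quasi-likelihood test, adjusted p = 0.00621). In tumor ECs it was at 244, 308 and 918 CPM in KO 1, 2 and 3, and the 6 WT libraries ran from 160 through a median of 336 to 595 CPM. KO 3 was above every WT library, whereas the other KO libraries lay inside the WT range. The tumor log2 fold change was 0.44 ± 0.45 (adjusted p = 1.00), and it was −0.38 without KO 3.

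*Mcam* encodes CD146, an adhesion molecule of the immunoglobulin superfamily found on ECs and pericytes that binds laminins with the alpha 4 chain. It was at 92.6 and 137 CPM in STOP 1 and 2 and at 364 and 316 CPM in GO 1 and 2. Both STOP libraries were below both GO libraries, and for 60.6% of all tested genes the groups likewise did not overlap. The log2 fold change was −1.57 ± 0.20 (edgeR adjusted p = 0.00999). This call was lost without GO 1 (−1.47, adjusted p = 0.0675), a fit in which the GO group held 1 library that was assumed to vary like the STOP pair. In tumor ECs *Mcam* was at 238, 581 and 486 CPM in KO 1, 2 and 3, and at 161, 469 and 669 CPM at the lowest, the median and the highest of the WT libraries. The KO values lay within the WT range, and the log2 fold change was −0.06 ± 0.38 (adjusted p = 1.00).

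*Esm1* encodes endocan, a proteoglycan that tip cells secrete in response to VEGF. It was at 29.2 and 65.7 CPM in STOP 1 and 2 and at 152 and 159 CPM in GO 1 and 2. The STOP libraries were lower and differed from each other far more than the GO libraries did. The log2 fold change of −1.72 ± 0.43 did not pass the test (adjusted p = 0.106, 95% interval −2.89 to −0.54). The DESeq2 Wald test called it (adjusted p = 7.55e-06), whereas edgeR did not call it without a filter on low counts (adjusted p = 0.25) or on RSEM expected counts (adjusted p = 0.107). With 1 library left out it was not called without GO 1 (−1.75, adjusted p = 0.484) or GO 2 (−1.68, adjusted p = 0.273), but was called without STOP 1 (−1.22, adjusted p = 0.0318) and STOP 2 (−2.43, adjusted p = 0.00105). In the fits without a STOP library the spread came from the GO pair alone, and the lone STOP library was assumed to vary likewise. In tumor ECs *Esm1* was at 215, 160 and 198 CPM in KO 1, 2 and 3, against 61.3, 145 and 277 CPM at the lowest, the median and the highest of the WT libraries. All KO values were inside the WT range (log2 fold change 0.31 ± 0.37, adjusted p = 1.00), and the value ran from 0.15 without WT 4 to 0.55 without WT 6.

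*Fscn1* encodes fascin, which bundles actin in filopodia. It was at 415 and 392 CPM in STOP 1 and 2 and at 605 and 570 CPM in GO 1 and 2. The difference was small and even across libraries, with a log2 fold change of −0.54 ± 0.14 (adjusted p = 0.0597). The adjusted p was 0.00236 with the DESeq2 Wald test and 0.0292 with edgeR without a filter on low counts, where the fold threshold alone kept it from a call, and it was 0.0536 to 0.29 with 1 library left out. In tumor ECs it was at 424, 812 and 294 CPM in KO 1, 2 and 3, and the WT libraries ran from 190 through 590 to 758 CPM. KO 2 was the highest of the 9 tumor libraries and WT 5 the lowest, and the groups overlapped (−0.10 ± 0.39, adjusted p = 1.00).

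*Nid2* encodes nidogen-2, a basement membrane glycoprotein that links laminin and collagen IV networks. It was at 625 and 569 CPM in STOP 1 and 2 and at 554 and 613 CPM in GO 1 and 2. The 4 values interleaved, with a log2 fold change of 0.03 ± 0.15 (adjusted p = 0.909), and the 95% interval of −0.31 to 0.37 leaves out a change of the size seen for *Mcam* or *Kcne3*. In tumor ECs it was at 305, 338 and 535 CPM in KO 1, 2 and 3, and at 83.6, 370 and 430 CPM at the lowest, the median and the highest of the WT libraries. The lowest of these was WT 5, and the next lowest WT library was at 315 CPM. The log2 fold change was 0.27 ± 0.39 (adjusted p = 1.00), and it was 0.07 without WT 5.

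*Rgcc* encodes a regulator of the cell cycle that binds cyclin-dependent kinase 1 and is abundant in capillary ECs. It was at 8.40 and 6.11 CPM in STOP 1 and 2 and at 2.71 and 5.25 CPM in GO 1 and 2, counts of 46 to 124 reads. The STOP libraries were higher, by a log2 fold change of 0.88 ± 0.40 that did not pass the test (adjusted p = 0.208). It was 0.47 without GO 1 (adjusted p = 0.678) and 1.42 without GO 2 (adjusted p = 0.088). In tumor ECs *Rgcc* was at 1089, 985 and 1734 CPM in KO 1, 2 and 3, against 344, 1029 and 1985 CPM at the lowest, the median and the highest of the WT libraries. The KO values fell inside the WT range (log2 fold change 0.29 ± 0.43, adjusted p = 1.00), and the value ran from 0.0036 without KO 3 to 0.59 without WT 5.

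Counted together, 2 of 6 members were called lower in the libraries labelled STOP, where 3.03% of 14557 tested genes were called lower, and 0 were called higher, where 0.852% of genes were. At an unadjusted p of 0.05, 4 members were lower and 0 higher, against 14.3% and 12.4% of all tested genes. The STOP and GO libraries did not overlap for 5 of 6 members, but with 2 libraries a group this holds for 60.6% of all tested genes. The median log2 fold change of the members was −1.06, beside 0.01 over all tested genes. With the replicate number as a block 0 members were called, where 41 genes were called lower and 3 higher. With libraries scaled to 12 endothelial markers 0 members were called lower and 3 higher, where 13 and 12961 genes were. In tumor ECs edgeR called 0 of 6 members, with 0.00765% of 13073 genes called, and the KO and WT values did not overlap for 0 members, against 2.33% of genes. At an unadjusted p of 0.05 there were 0 members there, against 4.81% of genes, and DESeq2 and limma voom also called 0. An exact permutation test (two-sided, 3 against 6 libraries, smallest possible p = 0.0238) of the mean log2(CPM + 1) gave p = 0.333 for *Esm1*, the lowest of the 6 members (adjusted p = 0.857 over the 6). The members' 95% intervals in tumor ECs reached from −0.93 at the lowest bound (*Fscn1*) to 1.39 at the highest (*Kcne3*).

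**Figure D2:**
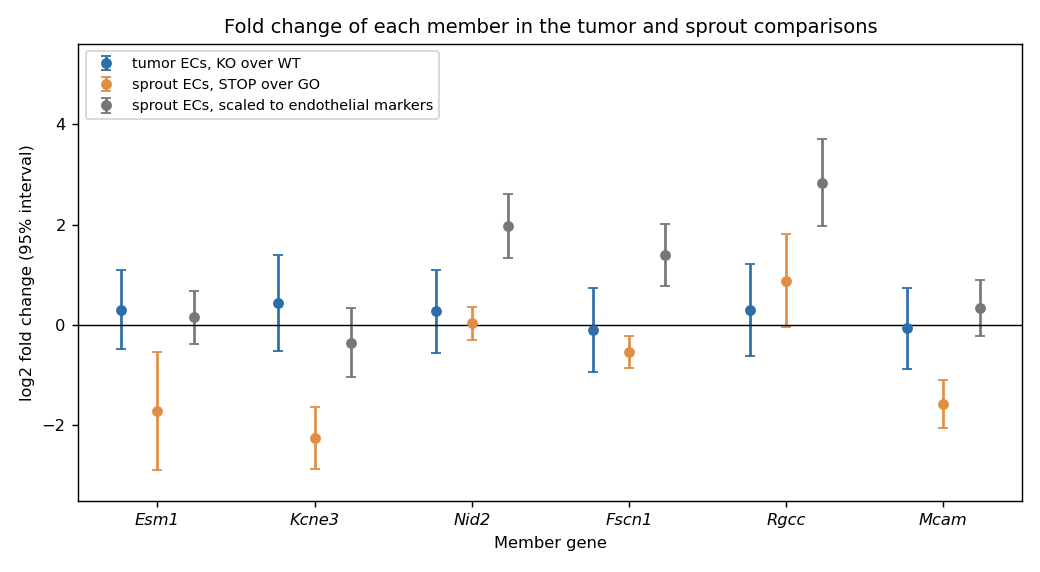
Log2 fold change of each member with its 95% interval for KO over WT in tumor ECs, for STOP over GO in sprout ECs, and for STOP over GO after scaling to 12 endothelial markers. Kcne3 and Mcam were at −2.25 and −1.57 in sprout ECs and moved to −0.35 and 0.33 under that scaling, while every tumor interval crosses 0.

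The difference between the sprout and the tumor effect was itself tested in a fit of all 13 libraries. The log2 difference, STOP over GO minus KO over WT, was −2.65 ± 0.76 for *Kcne3* (edgeR adjusted p = 0.43), −1.98 ± 0.64 for *Esm1* (adjusted p = 0.577) and −1.46 ± 0.61 for *Mcam* (adjusted p = 0.948). For *Nid2*, *Fscn1* and *Rgcc* it lay between −0.39 and 0.63. By edgeR 0 of 6 members passed, with 0.00634% of 15762 genes called, and limma voom also called 0, with 0.755% of genes called. The adjusted p by limma voom was 0.0649 for *Kcne3*, 0.0816 for *Esm1* and 0.162 for *Mcam*. By edgeR 3 members were under an unadjusted p of 0.05, as were 4.88% of all tested genes. The call of *Kcne3* and *Mcam* in sprout ECs alone is therefore not shown to differ from the tumor result.

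Endothelial markers moved with these members. All 12 endothelial markers were lower in the libraries labelled STOP and 11 were called, with a median log2 fold change of −1.98. *Tie1* changed by −2.26 ± 0.17 (adjusted p = 0.00242), *Erg* by −2.35 ± 0.19 (adjusted p = 0.00242), *Tek* by −1.84 ± 0.19 and *Ecscr* by −2.13 ± 0.22. Their summed level was 508 to 709 CPM under STOP and 2042 to 2056 CPM under GO. In bulk libraries fewer cells of a type and less RNA per cell cannot be told apart. Each library was then scaled to the 12 markers, which moved the median of all genes to 1.94. Relative to the markers, *Kcne3* stood at −0.35 ± 0.35 (edgeR adjusted p = 0.324), *Mcam* at 0.33 ± 0.28 (adjusted p = 0.252) and *Esm1* at 0.15 ± 0.27 (adjusted p = 0.587). *Fscn1* stood at 1.40 ± 0.31, *Nid2* at 1.98 ± 0.32 and *Rgcc* at 2.84 ± 0.44, each higher than the markers. *Pecam1*, the gene of the CD31 gate, was at 139 and 169 CPM in STOP 1 and 2 and at 264 and 273 CPM in GO 1 and 2, and was named after its values were seen. CD31 is also present on mouse embryonic stem cells.

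Transcripts of other cells were present beside them. All 10 pluripotency markers were higher under STOP and 1 was called, *Dppa5a* (1.28 ± 0.22, adjusted p = 0.0227), while *Pou5f1* was at 310 and 530 CPM in GO 1 and 2 and at 783 and 800 CPM in STOP 1 and 2. The list summed to 5811 to 5976 CPM under STOP and 2297 to 3825 CPM under GO, more than the endothelial list in each group, and none of it was at 0. The mural list, which bears on *Mcam*, summed to 281 and 470 CPM under STOP and 307 and 701 CPM under GO, with 0 of 9 tested genes called and *Notch3* and *Pdgfrb* its highest genes. The fibroblast list, led by *Col1a1* and *Col3a1*, was at 476 and 2966 CPM under STOP and 629 and 2963 CPM under GO, so it varied within both groups and 0 of 8 were called. Tumor epithelial markers, led by *Cdh1* and *Epcam*, summed to 758 to 968 CPM under STOP and 581 to 638 CPM under GO. Of 6 tested, only these 2 were higher under STOP, at 0.75 and 0.91. The other 4 were lower, down to −1.09, and 0 of the 6 were called. Leukocyte markers, of which *Cd68* and *Cd3e* were highest, stayed at 22.0 to 42.9 CPM in the sprout libraries. Blood cell markers, of which *Itga2b* and *Gata1* were highest, summed to 5.87 to 11.6 CPM under STOP and 24.6 to 37.2 CPM under GO, with *Hbb-bt* and *Hba-a1* at 0. All 4 tested were lower under STOP and 0 were called, with *Itga2b* at −1.90 (adjusted p = 0.0526) and *Gata1* at −1.44 (adjusted p = 0.124). Neural markers, led by *Nes* and *Stmn2*, were at 393 to 514 CPM, and 1 of 7 tested was called, *Tubb3*, which was higher under STOP (1.21 ± 0.19, adjusted p = 0.0156). Of the 7, 4 were higher and 3 lower under STOP, with *Nes* at −1.42 (edgeR adjusted p = 0.101) and *Stmn2* at 0.74. The part of these cells in the members' differences was not tested.

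**Figure D3:**
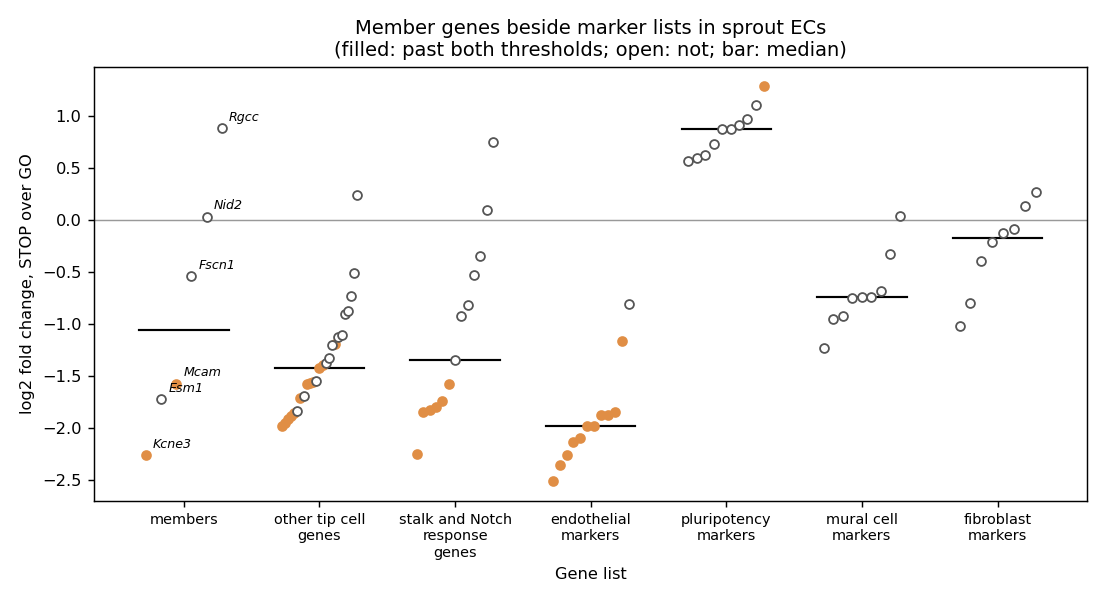
Log2 fold change of STOP over GO in sprout ECs for the members and 6 other gene lists, 1 point per gene, filled where both thresholds were passed, with a bar at the list's median. The member median of −1.06 lies above those of the other tip cell genes (−1.42) and the endothelial markers (−1.98), and all 10 pluripotency markers lie above 0.

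Of 25 other tip cell genes, 12 were called lower and 0 higher under STOP, 24 had a value below 0, and 20 were lower at an unadjusted p of 0.05, against the 14.3% of all tested genes given above. Those with the lowest p were *Flt4*, the VEGF-C receptor, at −1.71 ± 0.14, *Plvap*, a component of endothelial diaphragms, at −1.91 ± 0.17, *Pdgfb*, which recruits pericytes, at −1.42 ± 0.15, and *Kdr*, the main VEGF receptor, at −1.95 ± 0.20. *Apln* was the exception with a value above 0. Relative to the 12 endothelial markers, *Flt4* stood at 0.21, *Plvap* at 0.007, *Pdgfb* at 0.50 and *Kdr* at −0.04, and none of these was called. *Apln* stood at 2.16 and was called higher under that scaling, as were some other genes of the tip cell list and 12961 of 14557 tested genes. Of 13 stalk and Notch response genes, 6 were called lower, among them *Hey1* (−1.80 ± 0.16) and *Nrarp* (−1.82 ± 0.22), which Notch induces, and *Flt1*, the decoy VEGF receptor (−1.73 ± 0.16). The median of this list was −1.35. Relative to the endothelial markers, *Hey1* stood at 0.13, *Nrarp* at 0.08 and *Flt1* at 0.18, and none of these was called. Some other genes of this list were called higher under that scaling. In tumor ECs 1 of 25 tip cell genes was called, *Apln*, and 0 of 11 tested stalk genes. Below an unadjusted p of 0.05, as were 4.81% of all tested genes, there were *Vegfc* (1.69 ± 0.46, adjusted p = 0.726), *Flt4* (1.16 ± 0.44), *Kdr* (0.64 ± 0.28) and *Mmp14* (−0.69 ± 0.30). No endothelial marker was called there, and the gene with the lowest p was *Vwf* (0.69 ± 0.36, edgeR adjusted p = 1.00). Values above 0 in KO were found for 11 of 12 endothelial markers (median 0.30), 10 of 11 tested stalk genes (median 0.42) and 18 of 25 tip cell genes (median 0.29), beside 6289 of all 13073 tested genes (median −0.03). Scaling the tumor libraries to the 12 markers moved the median of all genes to −0.35. It brought *Kcne3* from 0.44 to 0.046, *Esm1* from 0.31 to 0.017, *Rgcc* from 0.29 to −0.051 and *Nid2* from 0.27 to −0.065. The same scaling took *Mcam* from −0.06 to −0.42 and *Fscn1* from −0.10 to −0.40, and 0 of the 6 members were called.

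Close relatives and binding partners of the members were examined beside them. *Nid1*, the paralogue of *Nid2*, was at 200 and 303 CPM in STOP 1 and 2 and at 684 and 483 CPM in GO 1 and 2, a log2 fold change of −1.21 ± 0.26 (adjusted p = 0.0492), whereas *Nid2* was at 0.03. Relative to the endothelial markers, *Nid1* stood at 0.69 ± 0.30 and was not called, whereas *Nid2* stood at 1.98 and was called higher. That scaling called 12961 of 14557 tested genes higher, with a median of 1.94 over all genes, near the value of *Nid2*. *Lama4*, whose protein is a ligand of CD146, was at 29.5 and 71.8 CPM under STOP and 171 and 130 CPM under GO (−1.57 ± 0.51, adjusted p = 0.174). With the scaling to endothelial markers *Lama4* stood at 0.29 ± 0.27 and was not called. *Bcam*, *Alcam* and *Lama5*, adhesion molecules related to *Mcam* and a further laminin chain, lay between −0.56 and −0.10. Under the same scaling they stood at 1.77, 1.29 and 1.89, and each was called higher, though below the median of 1.94 over all genes. *Kcnq1*, the channel that *Kcne3* holds open in epithelia, was at 50.4 to 161 CPM in the tumor libraries and at 0.24 to 0.65 CPM in the sprout libraries, where it was not tested. *Kcnc4*, another potassium channel gene, had a value of 0.91 ± 0.37 under STOP (adjusted p = 0.166). *Kcne4* was at 0.47 to 2.48 CPM in sprout ECs (−0.64 ± 0.73). *Kcne1* was at 0 counts in the KO libraries, where 3 counts stand for 0.211 to 0.51 CPM, and was detected in 3 of 6 WT libraries, at up to 29.9 CPM. *Kcne2*, *Fscn2* and *Fscn3* were too low to test in either set, and *Fscn2* reached 8.16 CPM in KO 1.

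Levels of different genes were compared per length, as deposited TPM in sprout ECs and as counts over the RSEM effective length in tumor ECs, 2 scales that were made separately. *Rgcc* was the highest of the 6 in all 9 tumor libraries, at 811 to 3878 on this scale, above at least 98.8% of detected genes. *Esm1* was lowest in 5 tumor libraries and *Nid2* in the other 4. Between these, *Kcne3* (303 to 1485), *Fscn1* (123 to 591) and *Mcam* (95.6 to 505) overlapped in range. In sprout ECs the order was different. *Fscn1* was highest in all 4 libraries, at 200 to 371 TPM, followed by *Nid2* at 146 to 171 TPM and *Mcam* at 44.8 to 205 TPM, which overlap. *Kcne3* (6.26 to 50.3 TPM) and *Rgcc* (4.87 to 13.6 TPM) were the lowest pair in all 4 libraries. The sets differ in tissue, cell number, library method and counter, so these levels are set side by side without a test.

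Across the tumor libraries 1 of 15 pairs of members was correlated past the adjustment. Over the 9 tumor libraries *Kcne3* and *Rgcc* were correlated (Pearson r = 0.88, permutation p = 0.00141, adjusted p = 0.0212 over 15 pairs, Spearman rho = 0.92, permutation p = 0.00131). With KO 3 and WT 5 left out, the libraries farthest from the *Kcne3* median, r was 0.87 (permutation p = 0.00952, adjusted p = 0.143), and over the 6 WT libraries alone it was 0.98 (permutation p = 0.00278, adjusted p = 0.0417). WT 4, which held the lowest value of both genes, stayed in each of these sets. The other 14 pairs did not pass the adjustment. *Fscn1* and *Mcam* had r = 0.77 and rho = 0.77 (permutation p = 0.0225 and 0.0214, adjusted p = 0.0778 and 0.107), with r = 0.77 when the same 2 libraries were left out. *Fscn1* and *Rgcc* had r = −0.75 and rho = −0.77 (permutation p = 0.0208 and 0.0214, adjusted p = 0.0778 and 0.107), which became −0.54 without them. *Fscn1* and *Kcne3* had r = −0.72 and rho = −0.65 (permutation p = 0.0259 and 0.0666), which became −0.38. *Nid2* and *Mcam* had r = 0.80 but rho = 0.37 (permutation p = 0.0235 and 0.336), and r fell to 0.45 without KO 3 and WT 5, so that relation rests on those libraries.

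**Figure D4:**
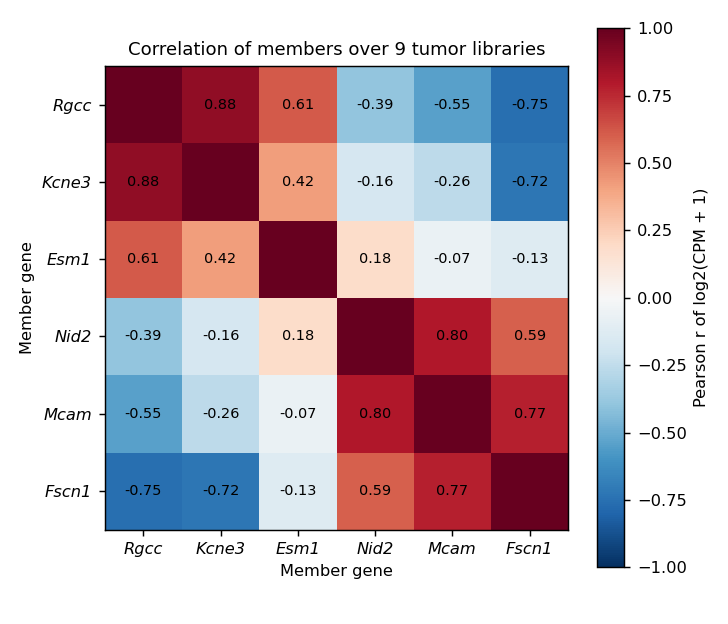
Pearson r of log2(CPM + 1) for each pair of members over the 9 tumor libraries, with colour and number giving r. Rgcc and Kcne3 (0.88) were the pair that passed the adjustment. Among Nid2, Mcam and Fscn1 r was 0.59 to 0.80, and that of Fscn1 was −0.75 with Rgcc and −0.72 with Kcne3, none of which passed.

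The library WT 5 held the lowest *Nid2*, *Fscn1* and *Mcam* and the highest *Rgcc* of all 9 tumor libraries, and KO 3 the highest *Kcne3* and *Nid2*. These were the libraries with the fewest genes detected, and the part of that in the members' values was not tested. The lowest *Esm1*, *Kcne3* and *Rgcc* of the 9 were in WT 4. Markers of other cells were high in other tumor libraries. The fibroblast list, led by *Dcn* and *Col3a1*, reached 5091 CPM in WT 2, with 45.8 to 326 CPM in the other 8 libraries. The leukocyte list, led by *Lyz2* and *Cd68*, reached 788 CPM in KO 1 and 591 CPM in WT 4, with 5.63 to 61.5 CPM elsewhere. *Ptprc*, the gene of CD45, by which leukocytes were gated out, was at 39.6 CPM in KO 1 and 59.95 CPM in WT 4, and at 0 to 24.98 CPM in the other 7 libraries. The mural list, led by *Kcnj8* and *Rgs5*, was at 81 to 103 CPM in KO and 94.5 to 481 CPM in WT. The epithelial list, led by *Krt8* and *Krt18*, stayed at 9.32 to 66.8 CPM. *Klf2*, which ECs also express, and *Dppa4* led the pluripotency list at 181 to 1104 CPM, and *Dppa5a* was at 0. Neural markers, again led by *Nes* and *Stmn2*, were at 236 to 560 CPM, and blood cell markers, led by *Itga2b* and *Pf4*, at 3.82 to 92.7 CPM. The part of these cells in the members' tumor values was not tested.

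The genes whose log2(CPM + 1) followed each member most closely over the 9 tumor libraries, out of 13072 compared, were *Kmt2c* (r = 0.92) and *Usb1* (0.89) for *Esm1*, *Lyrm9* (0.96) and *Necap2* (0.95) for *Kcne3*, and *Chn2* (0.98) and *Acap3* (0.97) for *Nid2*. For *Fscn1* they were *Maz* (0.99) and *Rbm14* (0.97), for *Rgcc* *Fnbp4* (0.95) and *Saysd1* (0.95), and for *Mcam* *Grb2* (0.96) and *Plekhh3* (0.95). No member was among another's closest genes. With 9 libraries and this many genes, high values of r are a description of these libraries only.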

How the data were processed

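The authors deposited raw read counts per gene for each library, from featureCounts (Subread 1.6.2) for tumor ECs and from HTSeq 0.6.1p1 for sprout ECs, on mm10. For sprout ECs they also deposited RSEM 1.2.25 expected counts, effective lengths and TPM. Sprout reads were aligned with STAR 2.5.0a. For tumor reads the paper's methods name STAR, while the submitters' processing notes also list Bowtie2 2.3.4.1 and Trim Galore 0.5.0. Tumor libraries were made by Smart-Seq2 and sprout libraries by TruSeq with poly-A selection. HTSeq rows that name no gene were left out of library sizes, and 42.6 to 49.6% of reads were not unique.

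From the counts, CPM were computed on TMM library sizes and each set was fitted with the quasi-likelihood test of edgeR 4.0.16 (R 4.3.3) after filterByExpr, with Benjamini-Hochberg adjustment over all tested genes, 13073 in tumor and 14557 in sprout ECs. The authors' tool, DESeq2, was run as an alternative in version 1.42.0, and limma voom in version 3.58.1. Single comparisons used exact permutation tests and member pairs permutation of Pearson's r over all orders. TPM were used for levels in sprout ECs, and for tumor ECs counts were divided by the median RSEM effective length, which existed for 23629 of 24984 genes. Expected counts were rounded and used as an alternative. Scaling to endothelial markers used the geometric mean of 12 genes.

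The named genes were the members, their paralogues and partners, *Apln*, the 4 genes of lowest p in the tip, stalk and endothelial lists, the 2 most abundant genes of each list of other cells, and 2 nearest genes per member. *Dppa5a*, *Pou5f1*, *Pecam1*, *Hbb-bt*, *Hba-a1*, *Tubb3* and *Ptprc* illustrate lists. A result for 1 partner gene is not reported here. The members and lists were chosen with earlier results of these data known. On simulated counts with 200 genes shifted 2 units of log2, edgeR recovered 31.5% of them among 12479 genes in the tumor design and 82.0% among 14333 in the sprout design.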

Additional observations from a re-analysis of the deposited data

Results flagged for a closer look

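*Nid2* in tumor library WT 5 was at 83.6 CPM, and the gap to the next of the 6 WT libraries, 315 CPM, exceeded the 95% critical value of Dixon's test (ratio 0.67). *Fscn1* and *Mcam* were also lowest in this library without passing the test (ratios 0.52 and 0.55). Chance flags about 1 in 20 groups, and 6 genes were examined in this way. Without WT 5 the *Nid2* log2 fold change of KO over WT was 0.07 (adjusted p = 1.00), beside 0.27 ± 0.39 with it.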

How the results depend on the processing

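The members' calls were recomputed under each alternative. In sprout ECs the count was 2 (*Kcne3* and *Mcam*) with DESeq2 size factors, other filters, RSEM expected counts or no fold threshold. Those fits called 365 to 632 of all tested genes lower and 104 to 279 higher. The count was 3 with DESeq2, which added *Esm1*. DESeq2 called 628 of 19441 genes lower and 198 higher, where the main fit called 441 and 124 of 14557. With the replicate block it was 0 (*Kcne3* −2.28, adjusted p = 0.0548, and *Mcam* −1.59, adjusted p = 0.0616, beside −2.25 and −1.57 without the block), where 41 genes were called lower in place of 441. The numbers were not taken to pair the libraries. Same-numbered tumor libraries had r of −0.0709, 0.0574 and −0.14 between their deviations from the group means, none over 0.1, and in sprout ECs the single value that 2 libraries a group allow was −0.434. A block with crossed numbers, added after the data were seen, gave 2, where 933 of 14557 genes were called lower and 302 higher. Leaving out 1 library at a time leaves 1 library in a group, so calls are not counted here. *Kcne3* then ran from −2.64 (without STOP 2) to −1.93 (without STOP 1). *Mcam* ran from −1.89 (without STOP 2) to −1.30 (without STOP 1). Scaling to endothelial markers turned *Esm1* to 0.15, *Mcam* to 0.33 and *Fscn1* to 1.40 and called *Fscn1*, *Nid2* and *Rgcc* higher, with 12961 of 14557 genes called higher. With 1 library left out, *Nid2* ran from −0.039 (without GO 1) to 0.11 and was −0.015 without STOP 1. In tumor ECs 0 members were called under every alternative run, and small values changed sign. *Nid2* was −0.043 with the replicate block and −0.065 scaled to endothelial markers, where *Rgcc* was −0.051. With 1 library left out, *Nid2* ran from −0.013 (without KO 3) to 0.43, *Kcne3* from −0.38 (without KO 3) to 0.77, *Fscn1* from −0.61 to 0.18 (above 0 without KO 1, KO 3 or WT 4) and *Mcam* from −0.33 to 0.23 (above 0 without KO 1 or WT 3). In the difference of effects *Fscn1* ran from −0.67 to 0.10 (without KO 2) and *Nid2* from −0.38 to 0.10 (without KO 3). The count of correlated pairs fell from 1 to 0 without the 2 farthest libraries, which left 7. DESeq2 called 97 genes lower and 19 higher in tumor ECs, and edgeR 1 and 0. The causes were not tested. In sprout ECs *Rgcc* rested on 46 to 124 reads per library, and its change of 0.88 did not pass at this depth and with 2 libraries a group.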
